A study of Caenorhabditis elegans with 6 samples.

Results

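The genes described here are the Caenorhabditis elegans genes named math and bath, after the domains of their proteins. The rule takes every gene of the deposited gene table whose symbol is math or bath followed by a number. It uses no measured value, but the families were picked for description with earlier results of these data known. That gave 73 of 46926 genes, 37 math and 36 bath, each annotated as protein coding. RNA of whole wild-type animals of strain N2, grown to the late L4 to young adult stage, was compared after 5 hours in buffer with heat-treated OP50 bacteria and either 25 µM chaetocin or its vehicle DMSO. Chaetocin, made by fungi, is in use as a blocker of enzymes that methylate lysine. Each treatment had 3 libraries, labelled NA1, NA3 and NA4 for DMSO and NB1, NB2 and NB3 for chaetocin. They are numbered 1 to 3 here in that order, and nothing says that each was grown as its own culture. The p-values then cover only how far these libraries differ, which may be technical. Libraries were made from pooled whole animals, so more cells of a type and more RNA per cell cannot be told apart.

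The MATH domain (meprin and TRAF homology) is a fold through which proteins hold their partners. In BATH proteins it is joined to a BTB domain, which binds the cullin CUL-3, so that the MATH domain selects proteins for ubiquitination and the BTB domain brings them to the ligase. The best known worm protein of this kind, MEL-26, hands the katanin subunit MEI-1 to CUL-3 after meiosis. Proteins of the math genes carry MATH domains without the BTB partner, and for most of them no function is known. An exception is math-33, the worm counterpart of the mammalian deubiquitinase USP7. Both families are large in C. elegans.

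Levels are given as FPKM (fragments per kilobase of transcript, scaled to the fragments of the library) as the authors deposited them, which allows genes of different length to be compared. Columns summed to between 1232966 and 1326067 FPKM. The files give no fragment count per library, so depth per library is unknown and no counting interval is given. The authors' deposited table lists 24 of the math and 36 of the bath genes. Among these the mean normalized count ran from 6.59 for bath-33 to 14548 for math-33. Of 15213 genes that reached 0.5 FPKM in 3 libraries or more, 842 were higher and 444 lower with chaetocin (limma on log2(FPKM + 0.1), Benjamini-Hochberg adjusted p under 0.05). The number of lower genes was 291 without DMSO replicate 1 and 274 without DMSO replicate 2. The germline and oocyte list (8 genes, 73.5 to 586 FPKM), the muscle list (4), the hypodermis list (4) and the neuron list (4) had 0 called genes, with 0, 0, 1 and 1 at unadjusted p under 0.05. In the sperm list 1 of 5 genes was higher, ssp-16, and the list summed to between 476 and 576 FPKM in DMSO and between 552 and 624 FPKM with chaetocin. In the intestine list ges-1 and ifb-2 were higher and vit-5 lower among 5 genes. The sums ran from 7624 to 9176 FPKM in DMSO and from 6438 to 7049 FPKM with chaetocin. They were mostly vit-2, at a mean of 5880 FPKM in DMSO and 4728 with chaetocin, and vit-5, at 2525 and 1844. The fall of the sums is thus that of these vit genes, not of the list. No listed gene was at 0 in all libraries, and the part of these shifts in the results on the members was not tested.

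Levels differed between the families. In DMSO the median over all 37 math genes was 0.41 FPKM, and over all 36 bath genes 6.80 FPKM. Of the math genes 17 were below the filter and 20 were tested, and of the bath genes 4 were below it (bath-25, bath-33, bath-37 and bath-46) and 32 were tested. Among those tested, 1 math gene and 17 bath genes stood at 10 FPKM or more in DMSO. The bath genes of 1 library summed to between 757 and 798 FPKM, and the math genes to between 159 and 202. math-33 alone gave between 77.15 and 88.93 of the latter. Coding length had a median of 1149 nt for math and 925.5 nt for bath genes.

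With chaetocin, 10 of the 37 math genes rose, 10 were tested and did not pass, and 17 were not tested, while no bath gene passed. Of the 20 math genes tested 10 were thus higher and 0 lower, against 5.53% higher and 2.92% lower, 8.45% in all, among all genes tested. The 32 bath genes tested had 0 higher and 0 lower in limma, with 1 at an unadjusted p under 0.05. Of the 36 listed in the authors' deposited table, 0 had a p-value under 0.05. The authors' p-values were read as adjusted, so that count is not like the unadjusted limma count. The median log2 fold change was 0.51 over the math genes tested, -0.01 over the bath genes tested and -0.0005 over all genes tested. math-15 and math-10 reached the filter through their chaetocin libraries alone, and without these genes 9 of 18 were higher, with a median of 0.48. With no filter, 10 of 36 math genes and 0 of 36 bath genes were higher, against 3.76% of all genes, with 1.87% lower, and the same 10 genes were called. The difference between the families was not tested, because members of a family are not replicates.

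**Figure D1:**
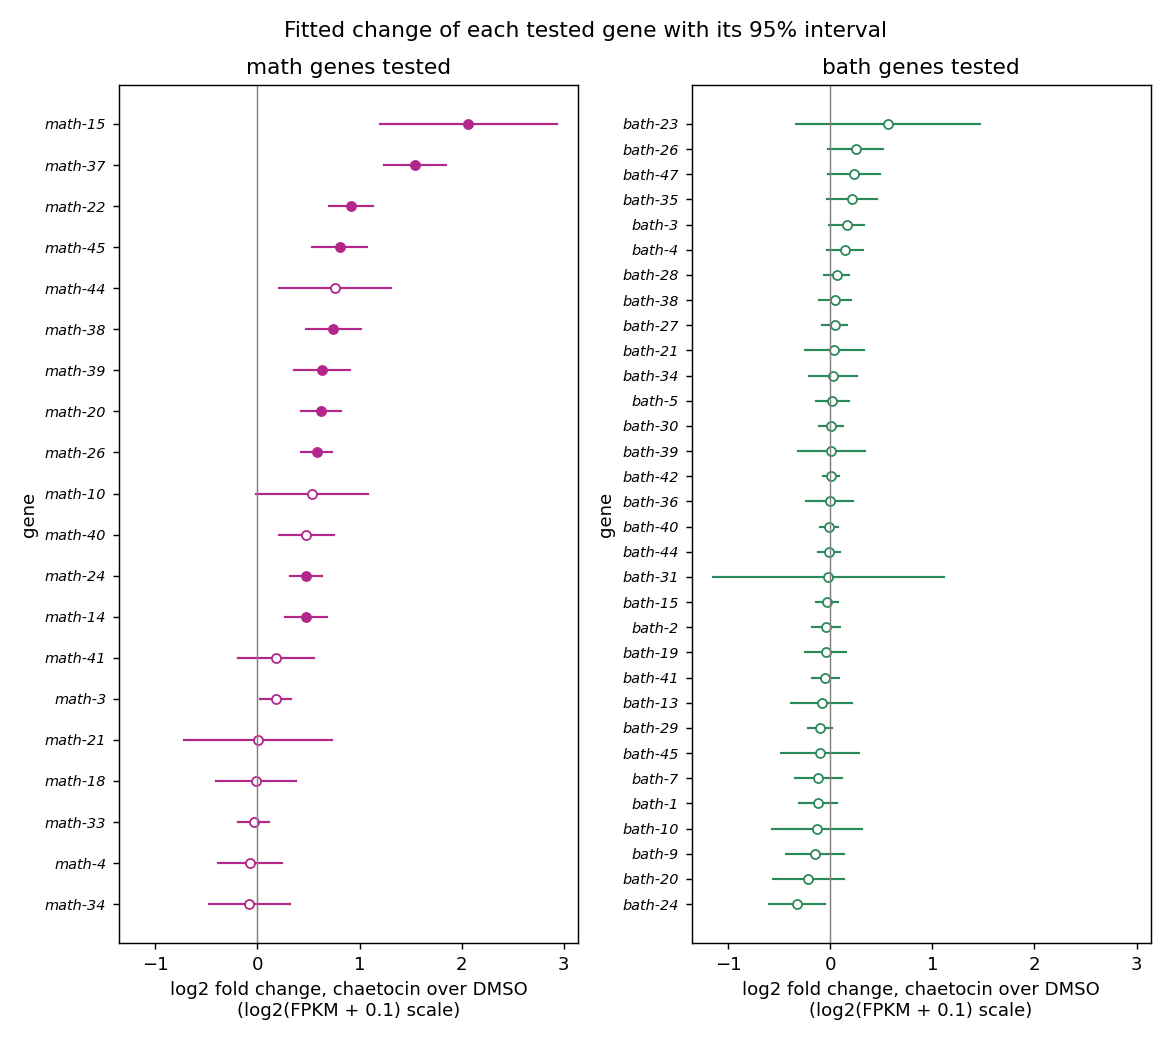
Fitted log2 fold change of chaetocin over DMSO for each tested math gene (left, 20 genes) and bath gene (right, 32 genes), with its 95% interval from limma. Filled points passed the threshold. The 10 filled points are all math genes above 0, and the bath genes lie around 0, between -0.32 for bath-24 and 0.57 for bath-23.

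The math genes did not move as 1 block. The 10 that rose are math-14, math-15, math-20, math-22, math-24, math-26, math-37, math-38, math-39 and math-45. In each of them the 3 chaetocin libraries lay above the 3 DMSO libraries. They were called on these same values, so for them that order is a description only. The same order held for 14 of the 20 math genes tested, these 10 included, and 1 of the 32 bath genes (bath-35). Among all genes tested it held for 12.4%. Without math-15 and math-10, which the filter kept for their chaetocin values, it held for 12 of 18 math genes. The reverse, all chaetocin libraries below all DMSO libraries, held for 0 math genes and for 4 bath genes (bath-15, bath-20, bath-24 and bath-29), against 14.6% of all genes. Apart from math-15, the ratio of mean FPKM of the genes that rose lay between 1.38 and 2.94.

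The largest of these changes at a measurable DMSO level was that of math-37 (WBGene00020080, chromosome II, 2116884 to 2122191, minus strand, WBcel235). It stood at 2.65, 2.50 and 3.30 FPKM in DMSO replicates 1 to 3 and at 7.4, 8.48 and 8.96 FPKM in chaetocin replicates 1 to 3. The lowest chaetocin library was thus above every DMSO library by a wide margin. Its log2 fold change was 1.54 ± 0.13 (SE; limma, adjusted p = 0.000527). The ratio of its unscaled mean FPKM was 2.94. The authors' deposited table gives math-37 a log2 fold change of 1.57.

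math-15 (chromosome II, 1866381 to 1867894) had the largest fitted change of all members but from a low level. Its DMSO values were 0.24, 0.07 and 0.28 FPKM, and its chaetocin values 0.90, 1.24 and 1.07 FPKM. Every DMSO value lay under the filter and every chaetocin value above it, so that the groups did not overlap was set by the filter. The log2 fold change was 2.07 ± 0.36 (limma, adjusted p = 0.0155), and the authors' mean normalized count of the gene was 21.5. The size of the change depended on the pseudocount: it was 1.19 with a pseudocount of 0.5, 0.80 with 1, and 2.50 in the authors' deposited table. Without chaetocin replicate 2 or 3 the adjusted p was 0.0706 and 0.0614.

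math-22 (chromosome II, 1905404 to 1907831) had 6.01, 6.94 and 7.22 FPKM in DMSO and 13.78, 11.79 and 12.37 FPKM with chaetocin. Chaetocin replicate 1 was the highest of the 6 libraries. The log2 fold change was 0.92 ± 0.09 (limma, adjusted p = 0.00105). Both of its listed transcripts were higher by their means: C46F9.1a.1 had 2.51 FPKM in DMSO and 4.96 with chaetocin, and C46F9.1b 4.21 and 7.69. Its neighbour math-24 (1900234 to 1901975) had 9.11, 8.53 and 9.33 FPKM in DMSO and 12.13, 12.87 and 12.20 with chaetocin (0.48 ± 0.07 on the log2 scale; limma, adjusted p = 0.00538). Between them lies math-23, with at most 0.25 FPKM in any library.

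math-45 (chromosome II, 1510287 to 1517454) and math-38 (1577378 to 1579986) are the members that rose outside the main run of members described below. math-45 had 1.82, 1.99 and 2.01 FPKM in DMSO and 3.31, 3.27 and 3.71 FPKM with chaetocin (log2 fold change 0.81 ± 0.11; limma, adjusted p = 0.00588). math-38 had 3.85, 3.55 and 3.73 FPKM in DMSO and 7.18, 5.44 and 6.13 FPKM with chaetocin (0.74 ± 0.11; limma, adjusted p = 0.00844). In both genes the groups were apart, and chaetocin replicate 1 was the highest library for math-38 and replicate 3 for math-45.

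math-20 (chromosome II, 1996537 to 1998531) had 6.32, 6.00 and 6.31 FPKM in DMSO and 9.15, 8.96 and 10.52 FPKM with chaetocin (log2 fold change 0.62 ± 0.08; limma, adjusted p = 0.00422). math-39 (1832338 to 1833522) had 4.41, 5.32 and 5.02 FPKM against 7.09, 8.46 and 7.30 FPKM (0.64 ± 0.11; limma, adjusted p = 0.0171). Its call was lost without DMSO replicate 1 (adjusted p = 0.0615) or chaetocin replicate 2 (0.0528). math-14 (1869420 to 1870805) had 5.25, 5.43 and 5.67 FPKM against 7, 7.4 and 8.24 FPKM (0.48 ± 0.09; limma, adjusted p = 0.018). The math-14 call was lost without DMSO replicate 1 (adjusted p = 0.0721), DMSO replicate 2 (0.0645), chaetocin replicate 2 (0.0683) or chaetocin replicate 3 (0.0604). The values of math-14 came from 1 transcript, C16C4.4b.1, while C16C4.4a.1 was listed at 0 in all 6 libraries.

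math-26 (chromosome II, 1771647 to 1774942) had 7.67, 7.32 and 7.57 FPKM in DMSO and 10.93, 11.02 and 11.55 FPKM with chaetocin, the tightest groups among the members that rose in terms of its standard error (log2 fold change 0.58 ± 0.06; limma, adjusted p = 0.00167). It overlaps math-3 (1772085 to 1778542) on the same strand over 2858 bases, of which 20 are exonic in both. math-3 had 9.74, 9.11 and 9.91 FPKM in DMSO and 10.57, 10.41 and 11.25 FPKM with chaetocin. Its groups were apart as well, but at 0.18 ± 0.06 on the log2 scale it missed the threshold (limma, adjusted p = 0.166). A further gene on that strand, F36H5.14, shares 469 exonic bases with math-3 and rose (log2 fold change 0.47 ± 0.11; limma, adjusted p = 0.0456). How RSEM divided fragments over the bases that these genes share was not tested.

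**Figure D2:**
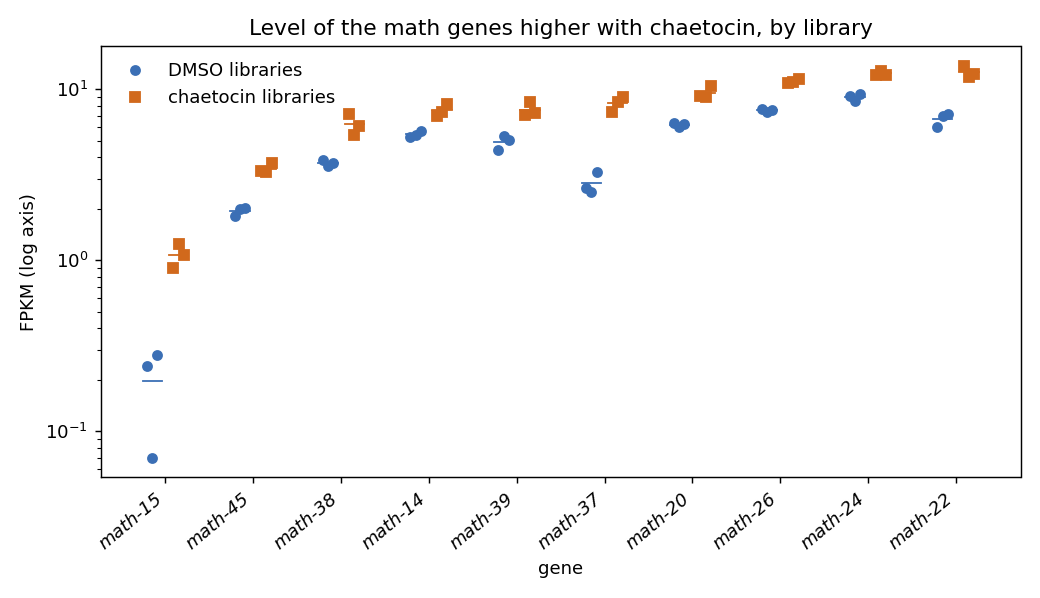
FPKM on a log axis of the 10 math genes that rose, in each of the 3 DMSO libraries (circles) and 3 chaetocin libraries (squares), with short lines at the group means. In every gene the squares lie above the circles, from 0.07 to 1.24 FPKM in math-15 up to 6.01 to 13.78 FPKM in math-22.

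Further math genes had changes of like size that missed the threshold, and they are named after their values were seen. math-40 (chromosome II, 1830632 to 1831803), which adjoins math-39, had 4.71, 3.87 and 5.19 FPKM in DMSO and 6.15, 6.38 and 6.46 FPKM with chaetocin (0.48 ± 0.11 on the log2 scale; limma, adjusted p = 0.0522, and 0.0431 without DMSO replicate 3). math-44 had 0.64, 0.68 and 0.64 FPKM against 1.57, 1.08 and 0.93 FPKM (0.76 ± 0.23; limma, adjusted p = 0.111). math-10, next to math-14, had 0.41, 0.34 and 0.48 FPKM against 0.56, 0.64 and 0.69 FPKM (0.54 ± 0.23; limma, adjusted p = 0.255). In math-40 and math-44 too the chaetocin libraries all lay above the DMSO libraries. For math-10 that order was set by the filter, which 3 chaetocin and 0 DMSO libraries reached.

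The most abundant math gene, math-33 (chromosome V, 11113907 to 11118824), whose mammalian counterpart is a deubiquitinase, did not pass the test. It had 88.93, 84.96 and 78.02 FPKM in DMSO and 80.62, 77.15 and 84.90 FPKM with chaetocin, overlapping groups. The log2 fold change was -0.04 with a 95% interval from -0.19 to 0.12 (limma, adjusted p = 0.806). Its 16 listed transcripts gave 11 with more than 1 FPKM in some library, and single transcripts went from 0.06 to 17.13 FPKM between DMSO libraries (H19N07.2b.1), so no transcript of it is compared. Of the other math genes that did not pass, math-4, math-18 and math-34 had 95% intervals that stayed within 1.5-fold either way, as did math-3, math-33 and math-41. The interval of math-21 ran from -0.72 to 0.73.

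The bath genes stayed close to their DMSO levels. For 29 of the 32 tested, the whole 95% interval of the change lay within 1.5-fold either way, as it did for 66.5% of all genes tested. The exceptions were bath-23 and bath-31, with group means of about 1 FPKM or less, and bath-24. The most abundant, bath-42 (chromosome III, 8161455 to 8163383), had 152.36, 155.69 and 150.71 FPKM in DMSO and 151.75, 148.55 and 156.03 FPKM with chaetocin. Its groups overlapped, and the log2 fold change was 0.01 with a 95% interval from -0.07 to 0.09 (limma, adjusted p = 0.927). On unscaled FPKM the sign turned (-0.008).

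bath-40 (chromosome I, 14647782 to 14651288) was next, with 116.69, 122.23 and 118.63 FPKM in DMSO and 117.08, 112.91 and 121.54 FPKM with chaetocin (95% interval of the log2 fold change -0.10 to 0.08). bath-41 (chromosome III, 6720415 to 6722258) had 91.54, 86.17 and 83.05 FPKM against 81.40, 81.65 and 86.71 FPKM (-0.17 to 0.08). bath-30 (chromosome II, 3345218 to 3346378) had 59.42, 60.27 and 57.79 FPKM against 59.97, 55.11 and 62.25 FPKM (-0.11 to 0.13). In each of these genes the groups overlapped, and the order of the levels, bath-42 above bath-40 above bath-41 above bath-30, held in each library.

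The largest fitted changes among bath genes were those of bath-23, bath-24 and bath-26. bath-24 (chromosome II, 2044619 to 2045605) had 11.23, 10.88 and 11.12 FPKM in DMSO and 8.64, 10.15 and 7.58 FPKM with chaetocin, with all chaetocin libraries below the DMSO libraries. At -0.32 ± 0.12 on the log2 scale it missed the threshold (limma, adjusted p = 0.175), and without chaetocin replicate 2 it passed (-0.45; limma, adjusted p = 0.0427). bath-26 (1599461 to 1600761) had 5.78, 6.17 and 6.75 FPKM in DMSO and 7.96, 6.19 and 8.02 FPKM with chaetocin, and chaetocin replicate 2 fell among the DMSO libraries (0.25 ± 0.11; limma, adjusted p = 0.28). bath-23 had 0.66, 0.77 and 0.33 FPKM against 0.63, 0.78 and 1.31 FPKM, overlapping groups at a low level (0.57 ± 0.38; limma, adjusted p = 0.471).

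The families were also set side by side at like levels. The 9 math genes that rose and were above the filter in all DMSO libraries had DMSO means between 1.94 and 8.99 FPKM. In that range 13 math genes were tested, of which 9 were higher, and 11 bath genes, of which 0 were higher, beside 261 of all 3966 genes tested in it (6.58%). The median standard error of the log2 fold change was 0.11 for both families there. The median log2 fold change in that range was 0.58 for math, 0.01 for bath and 0.02 for all genes. The range was set by the math genes that rose, so the math count in it is a description only. A group of 11 genes could hold 0 higher at 6.58%, so the bath count does not set these genes apart from all genes.

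**Figure D3:**
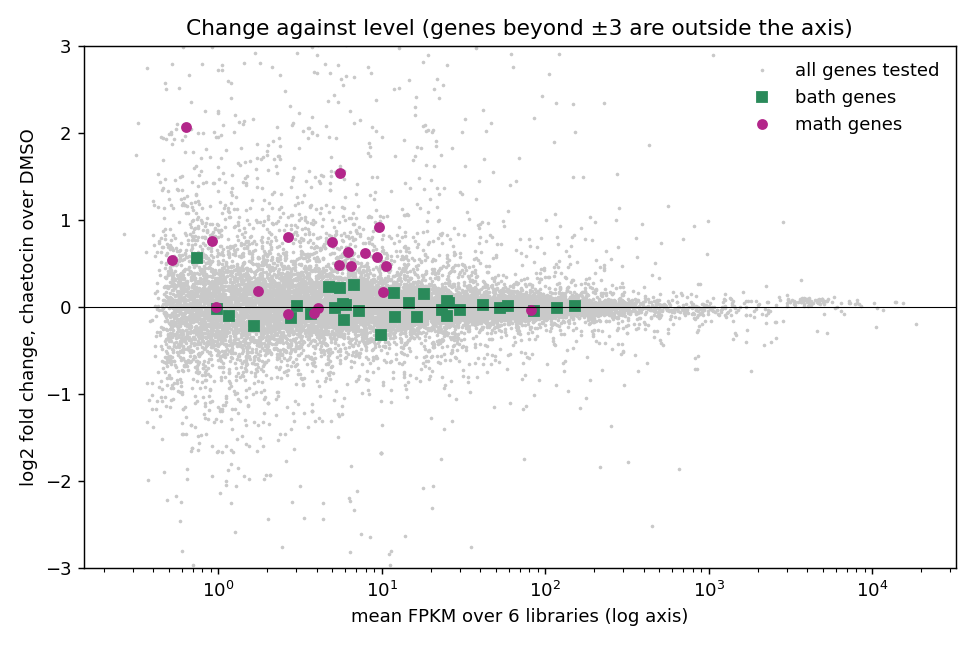
Log2 fold change of chaetocin over DMSO against mean FPKM over 6 libraries (log axis) for all 15213 genes tested (grey), bath genes (squares) and math genes (circles). Below 10 FPKM, math and bath genes share most levels. Apart from math-15, the math genes reach 1.54 there (math-37), and the bath genes reach 0.57. The highest math point, math-15 at 2.07, was kept by its chaetocin libraries alone and lies below the level of every tested bath gene. The 101 genes beyond a log2 fold change of 3 either way are outside the axis.

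Sums over each family were taken per library. The math genes other than math-33 summed to 80.19, 76.96 and 81.30 FPKM in DMSO and to 113.89, 113.01 and 116.81 FPKM with chaetocin. The 10 that rose gave 48.47 ± 1.71 of this in DMSO and 79.95 ± 1.82 with chaetocin (mean ± SD, n = 3). These 10 were picked by their rise in the same libraries, so their sum is a description only. The bath genes summed to 792.42, 797.81 and 781.01 FPKM in DMSO and to 785.17, 756.97 and 797.89 FPKM with chaetocin. The bath sums overlapped between treatments and the math sums did not.

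Most members share a place in the genome that the choice by name did not use. Chromosome II holds 35 of the 37 math and 26 of the 36 bath genes. Members were grouped into runs wherever the gap to the next member was at most 100 kb, a limit set after the positions were seen. The largest run (chromosome II, 1763372 to 2155220) holds 42 members, 32 math and 10 bath. Of the 16 math genes tested in it 8 were higher, of the 10 bath genes 0, and of 56 other genes tested in it 4 were higher and 0 lower. On chromosome II as a whole 121 of 2703 genes were higher (4.48%). So in this stretch, math genes that rose and bath genes that did not pass lie within less than 400 kb of each other, and their neighbours' median log2 fold change was 0.02.

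Within the run the members were not mixed evenly. The bath genes stand in a pair of blocks, bath-4, bath-7 and bath-2 in the first and bath-21, bath-1, bath-3, bath-5, bath-19, bath-20 and bath-24 in the second, with log2 fold changes between -0.32 and 0.16. Between math-10 and math-24 lie 8 math genes from math-13 to math-25 (1875958 to 1897758) whose highest value in any library was 0.16 FPKM. Of the genes on either side, math-24 rose and math-10 did not pass. math-25 was listed at 0 in all 6 libraries. With depth unknown, this does not show absence of transcripts.

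The 4 other genes of the run that were higher are T08E11.1, the pseudogenes WBGene00020364 and WBGene00020075, and F36H5.14. T08E11.1 (1836504 to 1840363) and WBGene00020364 (1833627 to 1835783) lie just after math-39. T08E11.1 had 0.35, 0.23 and 0.68 FPKM in DMSO and 2.14, 2.20 and 2.06 FPKM with chaetocin (log2 fold change 2.21 ± 0.32; limma, adjusted p = 0.00622). WBGene00020364 had 0.73, 0.78 and 0.69 FPKM against 2.08, 2.10 and 2.44 FPKM (1.48 ± 0.16; limma, adjusted p = 0.00154). WBGene00020075 (2104524 to 2106866) lies between math-42 and math-37 and had 7.49, 7.62 and 8.33 FPKM against 11.32, 13.04 and 12.16 FPKM. RSEM estimates how fragments that match several genes are shared, so fragments of near-identical copies may be divided between these genes and the math genes beside them. This was not tested.

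**Figure D4:**
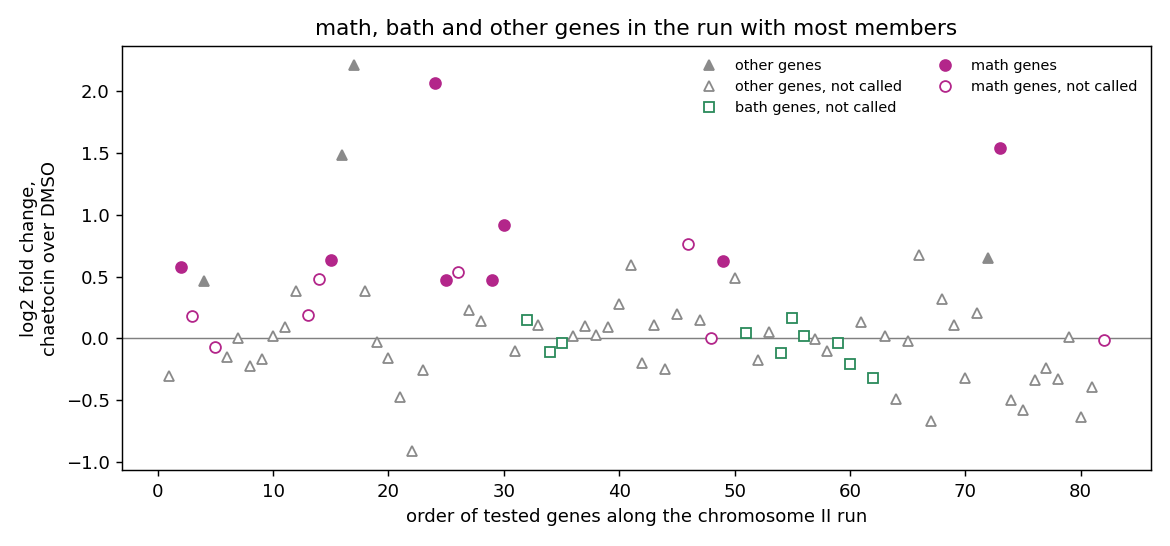
Log2 fold change of chaetocin over DMSO for the tested genes of the largest run on chromosome II, in their order along the chromosome: 16 math genes (circles), 10 bath genes (squares) and 56 other genes (triangles). Filled symbols passed the threshold, and those are 8 math genes and 4 other genes.

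Smaller runs lie elsewhere on the chromosome. In the run from math-45 to bath-33 (chromosome II, 1510287 to 1606179) math-45 and math-38 were higher, and bath-26 and bath-47 did not pass. Of 13 other genes tested 0 were called, with a median log2 fold change of -0.30. Most of these 13 are F-box genes named fbxb, a family described below. The median over all 66 fbxb genes tested was -0.40. Another run (3343731 to 3378834) holds 7 bath genes and no math gene. There 0 of the 7 bath genes and 0 of 7 other genes were called, with a median log2 fold change of 0.01 for each group. Among all genes tested 8.45% were called, and groups as small as those in these runs could hold 0 calls at that share.

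No called gene was found in the ligase that BATH proteins join. A list of 19 genes covered the CUL-3 ligase, its regulators, and mei-1, mei-2 and ppfr-1, which are not parts of the ligase. Of these 19 genes 0 passed the limma test, against 8.45% of all genes tested, and 1 had an unadjusted p under 0.05. A list this small could hold 0 calls at that share. The cullin gene cul-3 had 136.78, 152.33 and 139.42 FPKM in DMSO and 141.03, 134.74 and 134.37 FPKM with chaetocin, with a 95% interval of the log2 fold change from -0.17 to 0.08. The BTB-MATH adaptor gene mel-26 had 116.16, 119.23 and 116.04 FPKM against 107.85, 107.94 and 113.86 FPKM, with all chaetocin libraries lower and an interval from -0.17 to 0.01 (limma, adjusted p = 0.313). The RING subunit gene rbx-1, the modifier gene ned-8 and the genes csn-1 to csn-6 of the COP9 signalosome, which removes NED-8, had log2 fold changes between -0.08 and 0.02. The gene with the unadjusted p under 0.05 was dcn-1, which promotes cullin neddylation (0.12 ± 0.03 on the log2 scale; limma, adjusted p = 0.0717).

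Other families of ligase adaptors were read against the same background of 5.53% higher and 2.92% lower among all genes. Of 20 other BTB genes tested, named btb, kel or btbd, 1 was higher and 0 lower. That gene was kel-8, a Kelch-BTB adaptor of CUL-3 known for limiting glutamate receptors in neurons, with 22.33, 21.74 and 23.32 FPKM in DMSO and 26.80, 25.39 and 26.06 FPKM with chaetocin (log2 fold change 0.23 ± 0.04; limma, adjusted p = 0.0165). The count was 0 without DMSO replicate 1 or 2 or without any 1 of the chaetocin replicates. btb-4, the BTB gene inside the largest run, had a log2 fold change of -0.003. Of 203 F-box genes tested, adaptors of another cullin class, 17 were higher and 2 lower. Of these families 14 of 104 fbxa, 0 of 66 fbxb and 3 of 33 fbxc genes were higher, and 1, 1 and 0 lower. The median log2 fold change was 0.12 over fbxa, -0.40 over fbxb and -0.02 over fbxc genes. The number of F-box genes higher was 8 without DMSO replicate 2, chaetocin replicate 1 or chaetocin replicate 3, and 9 without chaetocin replicate 2. The TRAF genes trf-1 and trf-2, whose proteins carry the same fold as the MATH domain, were below the filter, with at most 0.40 FPKM in any library.

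The authors' deposited table gave the same calls. Of the 24 math genes it lists, 10 were higher at a p-value, read as adjusted, under 0.05, and those were the same 10. Among its 16062 genes 5.57% were higher and 3.49% lower. Its median log2 fold change, turned to chaetocin over DMSO, was 0.50 over the math genes and -0.01 over the bath genes it lists. It rests on these same libraries and is no independent evidence.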

How the data were processed

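The members and gene lists were chosen with earlier results of these data known. The authors deposited FPKM per gene and per transcript, with 1 column per library. Per the submitters' processing notes, the build was WBcel235 and the tools included RSEM 1.3.1, STAR 2.7.9a, Trimmomatic 0.36, MultiQC and FastQC 0.11.4. The annotation release and whether counting used strand are not given in the sources used here. The unit was read as FPKM from the values: sums were unequal, and normalized counts per FPKM grew with coding length (r = 0.873 between log2 values over 14336 genes, themselves not independent). The authors' deposited comparison holds a log2 fold change, a standard error (unit of score), a mean normalized count (a signal) and a p-value; a normal p recomputed from change and error and then adjusted was, in the median, 0.990 of the deposited one, so these were read as adjusted. Positions came from the Ensembl annotation of WBcel235.

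Genes reaching 0.5 FPKM in 3 or more libraries entered limma 3.58.1 (R 4.3.3) as log2(FPKM + 0.1), which understates changes of low genes. Libraries were first scaled with trimmed, unweighted mean log ratios (factors 0.977 to 1.03), and variance was moderated along the mean. P-values are 2-sided, adjusted by Benjamini-Hochberg over all 15213 genes. Levels in the text are unscaled. Named genes are members that passed, the 4 highest and the 3 most changed of each family, and math-33, bath-42, cul-3 and mel-26. Other genes were named after their values were seen. Recovery of known changes was checked on simulated FPKM. Alternatives were other pseudocounts, scalings, filters and variance models, a replicate block, each library left out, and the authors' table.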

Additional observations from a re-analysis of the deposited data

How the results depend on the processing

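Of the members, 7 math genes (math-20, math-22, math-24, math-26, math-37, math-38 and math-45) were called in all 15 fits, and the number of math genes called higher lay between 7 and 11 with 1 library left out. The bath count lay between 0 and 1 lower. math-15 was not tested at a filter of 1 FPKM. Replicate numbers here follow the order of the labels, which do not number the libraries alike in both groups. Deviations of libraries with the same number here correlated at 0.106, 0.067 and -0.026, so the numbers were not taken as pairs. Those of NA3 and NB3, which share a number in the labels, correlated at -0.016. The replicate block used the numbers given here. With the replicate block 8 math genes were higher (math-14 at an adjusted p of 0.0611 and math-15 at 0.0637 in limma lost the call), 255 of all genes lower, 0 other BTB genes higher, and 10 F-box genes higher and 0 lower. F-box genes lower numbered 1 with no filter and 5 with no variance trend. With 1 library left out the number of all genes lower ran from 274 to 510, of other BTB genes higher from 0 to 1 and lower from 0 to 1, and of F-box genes higher from 8 to 14 and lower from 0 to 2.

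With 1 library left out, 18 of the 52 tested members took both signs, 5 math and 13 bath genes, of which 0 were called; the widest range was that of bath-31, from -0.447 to 0.422. The median over bath genes ran from -0.0226 to 0.0103. On unscaled FPKM bath-30 was at -0.00285 and bath-42 at -0.00782. Among named genes that turned, log2 fold changes with 1 library left out ran from -0.0198 to 0.0494 for bath-30, from -0.0303 to 0.0168 for bath-40, from -0.0935 to 0.000743 for bath-41, from -0.0180 to 0.0285 for bath-42, from -0.0784 to 0.00847 for cul-3 and from -0.104 to 0.0140 for math-33. The cause was not tested. Depth per library is unknown, and 21 members lay below the filter.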
